A study of Mus musculus with 2 samples.

Results

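The G1 cyclins Ccnd1, Ccnd2, Ccnd3 and Ccne1, their kinases Cdk4 and Cdk6, the CDK inhibitors Cdkn1b and Cdkn1c, and the mitotic kinase Wee1 were followed across single mouse fibroblasts sorted by a circadian reporter. The genes were chosen by name from the deposited count table of 33757 features. Of the 9 genes, 8 had a row in the table and all 8 passed the filter on low counts. Cdkn1c was not analysed here.

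The cells were the line NIH3T3-Rev-VNP1-H2B-iRFP, a derivative of the NIH3T3 mouse embryonic fibroblast line. All cells carried a Venus fluorescent reporter named for Nr1d1, the clock repressor Rev-erb alpha, and a nuclear label made of histone H2B and the near-infrared fluorescent protein iRFP. They were grown in 10% serum to 95% confluency, about 5 days after seeding, without synchronization, and the labels name no other genotype or treatment. The line's clonal origin and the number of cultures behind the plates were not given in the sources used here. Each of 2 plates of 384 wells received 96 single cells from each of 4 bins of Venus brightness, called bin 1 (dimmest) to bin 4 (brightest) here, and libraries covering whole transcripts were made with FLASH-seq. The high iRFP sort went to plate 1 and the low iRFP sort to plate 2, so plate and iRFP sort cannot be told apart. A Venus bin occupied identical well columns, 6 per bin, on the 2 plates, and the effect of position in the plate cannot be told apart from that of the bin.

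The filter on cells kept 762 of 768, with 151173 to 1618022 counts per cell. No cell name occurred on both plates and no kept cells had identical counts. The summed counts of a plate and bin came to between 76042157 and 86612194. All 8 fibroblast markers were detected, from Col1a1 at 8556 and 8347 counts per 1e6 (CPM) on plates 1 and 2 to Thy1 at 74.8 and 54.0 CPM. Of 3 epithelial markers measured, Epcam was at or below 0.0062 CPM, while Krt14 was at 36.6 and 30.2 CPM and Cdh1 at 4.15 and 5.37 CPM. Of 3 immune markers, Ptprc was at or below 0.0031 CPM, Cd68 was at 0.33 CPM on both plates, and Lyz2 was at 7.71 and 8.61 CPM with counts in 51.2% and 54.9% of cells. Of 2 endothelial markers, Pecam1 was at 0.42 and 0.51 CPM and Cdh5 at 0.15 and 0.0031 CPM. The summed Venus transcript went from 19.5 and 23.7 CPM in bin 1 to 678 and 685 CPM in bin 4 on plates 1 and 2, in the order of the gates.

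Progress through G1 is driven by D-type cyclins, which accumulate in response to growth factors and activate Cdk4 and Cdk6. These kinases begin the phosphorylation of the retinoblastoma protein, E2F factors are released, and cyclin E, itself an E2F target, activates Cdk2 for entry into S phase. The inhibitor p27, the product of Cdkn1b, binds cyclin E-Cdk2 and accumulates in cells at high density, while p57, the product of Cdkn1c, belongs to the same inhibitor family. Wee1 phosphorylates and inhibits Cdk1 and so delays mitosis, and in mouse liver its transcription is a known output of the circadian clock.

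RefSeq promoter windows (build GRCm38.p6, 250 bases before to 50 after the gene's start) were supplied for 5 of the 9 genes, with 2 windows for Ccnd3. Ccnd1, Ccnd2, Cdkn1c and Wee1 had no entry. Both strands were searched for the E-box CACGTG, through which the clock activator binds, the D-box TTATGTAA or TTACGTAA, bound by Dbp and Tef, the hexamer AGGTCA, bound by ROR and Rev-erb, and the E2F motifs TTTCCCGC and TTTGGCGC. The 250 bases before the start are shown for Cdk4 and Cdk6, the genes whose windows held an E-box, 5' to 3' on the plus strand with every match in capitals. The Cdk4 stretch is chr10:127063285-127063534 and the Cdk6 stretch is chr5:3343643-3343892.
Cdk4: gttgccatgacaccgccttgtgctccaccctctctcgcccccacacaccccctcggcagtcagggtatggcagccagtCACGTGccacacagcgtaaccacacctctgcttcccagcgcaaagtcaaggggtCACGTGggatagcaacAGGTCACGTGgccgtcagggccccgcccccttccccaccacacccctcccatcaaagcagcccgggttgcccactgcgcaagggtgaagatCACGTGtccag
Cdk6: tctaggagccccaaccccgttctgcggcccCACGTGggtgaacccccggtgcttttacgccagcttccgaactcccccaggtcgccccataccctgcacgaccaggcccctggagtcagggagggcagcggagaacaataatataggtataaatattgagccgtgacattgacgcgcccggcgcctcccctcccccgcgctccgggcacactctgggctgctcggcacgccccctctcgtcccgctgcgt
The Cdk4 window held 4 E-boxes, whose first bases lay at -172, -118, -98 and -11 from the start, and the hexamer at -102 that overlaps the E-box at -98 in the capital run of the 2 motifs. The Cdk6 window held an E-box at -220. The first Ccnd3 window held the hexamer on the other strand at -97, and the second, like those of Ccne1 and Cdkn1b, held none of the motifs. No D-box or E2F match was found in the 6 windows. Over 32851 windows of the same length, 7.15% held the E-box, 16.3% the hexamer, 1.06% a D-box and 1.56% an E2F motif.

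The levels of the 8 genes were spread widely. Divided by exon length (approximate lengths from GENCODE M21), Cdk4 was highest with a mean over plates of 157 CPM per kb. Cdkn1b (32.0 CPM per kb) and Ccnd2 (29.1 CPM per kb) followed, and their plate values overlapped. Ccnd3 at 15.9, Ccnd1 at 9.78 and Cdk6 at 7.16 CPM per kb came next, each without overlap between plates of neighbouring genes. Ccne1 at 5.52 and Wee1 at 5.14 CPM per kb were lowest and overlapped between plates. Ccnd2 was thus the most abundant D-type cyclin per length on both plates.

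The question put to the Venus bins was which of these genes changed with the brightness of the clock reporter. Wee1, Ccnd1 and Ccne1 rose from dim to bright cells and Cdk4 and Cdkn1b fell, while Ccnd2, Ccnd3 and Cdk6 did not pass the test. Wee1 rose the most, by 2.91-fold from bin 1 to bin 4, and Ccnd1 rose 2.24-fold. Counts were summed over the cells of each plate and bin, and the 8 sums were tested with edgeR's quasi-likelihood test for a linear trend, given as a log2 change per bin, with Benjamini-Hochberg adjustment over 18430 genes and a threshold of 0.05. Of all genes tested 15.4% were called, 6.78% higher and 8.64% lower toward bright Venus, beside 3 higher and 2 lower of the 8 genes. The median absolute trend of all called genes was 0.15, the median trend was 0.04 over the 8 genes and 0.00 over all genes tested, and 6.81% of genes had a larger absolute trend than Wee1. The 2 plates are the only replicates. Plate is a term of the fit, so p-values measure how the differences between bins varied from plate to plate. The estimate of that spread also borrows from all genes tested.

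**Figure D1:**
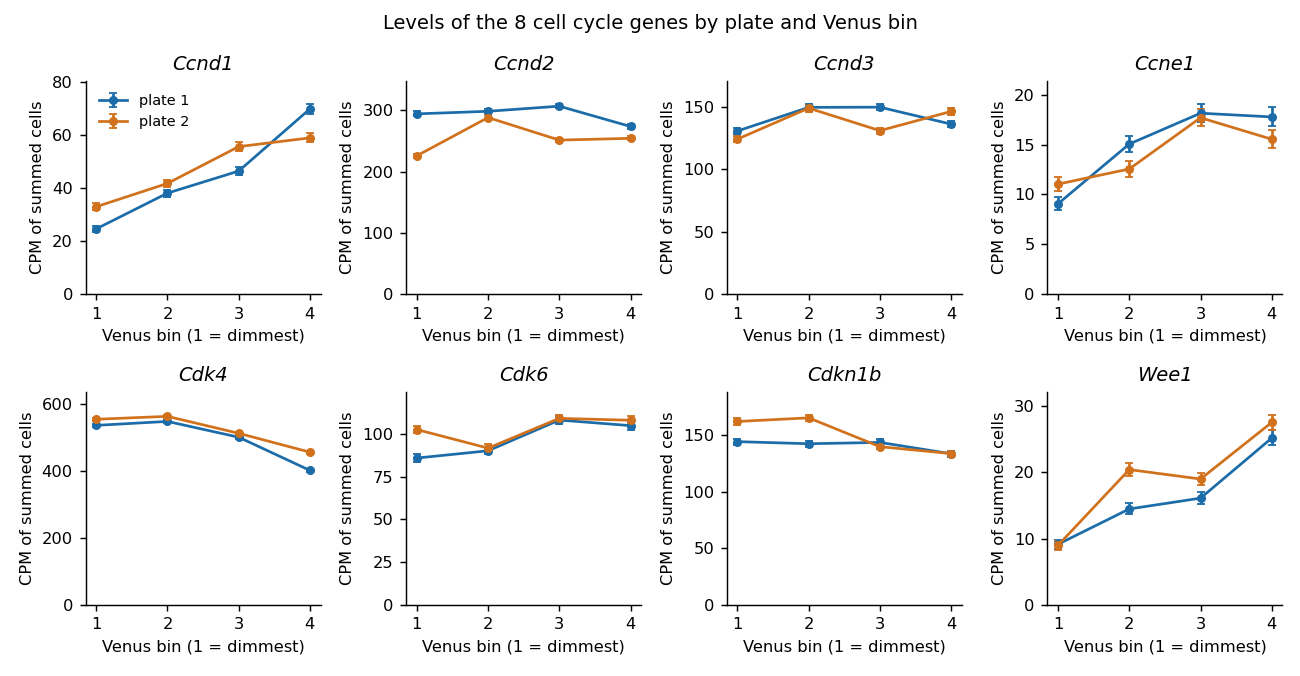
Levels of the 8 genes as CPM of the summed cells (vertical axis, from 0) in Venus bins 1 to 4 (horizontal axis) on plate 1 (blue) and plate 2 (orange), with exact Poisson 95% intervals as bars. Ccnd1 and Wee1 are lowest in bin 1 and highest in bin 4 on both plates, and Cdk4 is lowest in bin 4 on both.

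Among the D-type cyclins, only Ccnd1 passed the test. Its summed level on plate 1 was 24.6, 38.0, 46.4 and 69.8 CPM in bins 1 to 4. On plate 2 it was 32.9, 41.7, 55.6 and 58.9 CPM. Every step up in Venus came with a higher Ccnd1 level on both plates, and the bin 1 and bin 4 values did not overlap. Bins 1 and 4 also did not overlap for Ccnd3 and Cdk6, which did not pass the test. The share of all genes without such overlap was not counted, so non-overlap is given as a description. The trend of Ccnd1 was 0.37 ± 0.04 log2 per bin (SE, edgeR adjusted p = 0.0026). It was 0.45 on plate 1 alone and 0.28 on plate 2 alone, which have no test. The protein-coding gene LTO1 overlaps Ccnd1 on the opposite strand, at 25.1 CPM over all cells against 44.6 and 47.5 CPM for Ccnd1 on plates 1 and 2, so shared reads may alter the level and fold given for Ccnd1. LTO1 had a trend of -0.05 ± 0.03 log2 per bin (SE; edgeR adjusted p = 0.316).

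Ccnd2, the second D-type cyclin, showed no such order. It stood at 294, 298, 307 and 274 CPM in bins 1 to 4 of plate 1, and at 226, 288, 251 and 254 CPM on plate 2. Bins 1 and 4 overlapped between the plates. Its trend was -0.02 ± 0.03 log2 per bin (SE; edgeR adjusted p = 0.752), and its sign turned under several alternatives. Ccnd3 was at 131, 150, 150 and 136 CPM on plate 1 and at 124, 149, 131 and 147 CPM on plate 2, lowest in bin 1 on both. Its trend was 0.02 ± 0.02 log2 per bin (SE; edgeR adjusted p = 0.654). Ccnd3 overlaps Bysl on the opposite strand, and no source used here says if counting used strand, so reads of the 2 genes may be shared. Bysl was at 27.2 CPM over all cells and rose by 0.18 ± 0.03 log2 per bin (SE; edgeR adjusted p = 0.00623).

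The kinase partners of the D-type cyclins differed from each other. Cdk4, which binds all 3 D-type cyclins, was at 538, 549, 502 and 403 CPM in bins 1 to 4 of plate 1. On plate 2 it was at 556, 565, 514 and 457 CPM. Bin 2 was highest and bin 4 lowest on both plates, without overlap between bins 1 and 4. The trend was -0.13 ± 0.02 log2 per bin (SE; edgeR adjusted p = 0.00381), with -0.16 on plate 1 and -0.11 on plate 2. The bin 4 level was 0.786 of the bin 1 level. Fits that left out a bin took bin number as a number and had fewer sums. With all bins kept, that model gave Cdk4 a trend of -0.13 (edgeR adjusted p = 0.0235). Without bin 4 the trend was -0.06 (edgeR adjusted p = 0.335), and without bin 2 it was -0.12 (edgeR adjusted p = 0.0565). Neither passed the test. Tspan31 overlaps Cdk4 on the opposite strand, at 166 CPM, and its own trend was -0.06 ± 0.02 log2 per bin (SE; edgeR adjusted p = 0.0691).

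Cdk6, the second kinase of the pair, stood at 85.9, 90.1, 108 and 105 CPM on plate 1 and at 103, 91.7, 109 and 108 CPM on plate 2. Bins 3 and 4 were above bins 1 and 2 on both plates. Its trend of 0.06 ± 0.02 log2 per bin (SE; edgeR adjusted p = 0.0913) did not pass the test. It passed with DESeq2 (adjusted p = 0.029), with limma on mean CPM (adjusted p = 0.0413) and in cells of neither cell cycle class described further on (edgeR adjusted p = 0.0384). Cdk4 and Cdk6 thus had trends of opposite sign. The difference between them was not tested.

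Ccne1, the cyclin that acts with Cdk2 at the entry to S phase, was among the least abundant of the genes. Its level on plate 1 was 9.06, 15.1, 18.1 and 17.8 CPM in bins 1 to 4, and on plate 2 it was 11.03, 12.6, 17.7 and 15.5 CPM. Bin 1 was lowest and bin 3 highest on both plates, and bins 1 and 4 did not overlap. The trend was 0.24 ± 0.04 log2 per bin (SE; edgeR adjusted p = 0.0123), 0.29 on plate 1 and 0.19 on plate 2. The dimmest bin carried much of it, since without bin 1 the trend was 0.11 (edgeR adjusted p = 0.453). The call was also lost without bin 2 (0.25, edgeR adjusted p = 0.0795) and without bin 3 (0.21, edgeR adjusted p = 0.0801). These fits took bin number as a number. With all bins kept, that model gave an edgeR adjusted p of 0.0468, already close to the threshold.

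Cdkn1b, which encodes the inhibitor p27, fell slightly. It was at 144, 143, 144 and 134 CPM on plate 1 and at 162, 165, 140 and 134 CPM on plate 2. The plates met in bin 4 and stood apart in bins 1 and 2. The trend was -0.09 ± 0.02 log2 per bin (SE; edgeR adjusted p = 0.0297), with -0.06 on plate 1 and -0.12 on plate 2. The call was lost without TMM scaling (edgeR adjusted p = 0.0845), with limma on mean CPM (adjusted p = 0.0669) and whenever any bin was left out (edgeR adjusted p between 0.0740 and 0.441). Those last fits took bin number as a number, a model that gave an edgeR adjusted p of 0.0458 with all bins kept.

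Wee1 stood at 9.14, 14.5, 16.1 and 25.2 CPM in bins 1 to 4 of plate 1. On plate 2 it stood at 8.99, 20.4, 19.0 and 27.5 CPM. Bin 1 was lowest and bin 4 highest on both plates with no overlap, while the order of bins 2 and 3 differed between plates. The trend was 0.45 ± 0.04 log2 per bin (SE; edgeR adjusted p = 0.00149), 0.43 on plate 1 and 0.46 on plate 2. Without bin 1 it was 0.28 (edgeR adjusted p = 0.0654) and without bin 4 it was 0.46 (edgeR adjusted p = 0.113), and neither passed the test. These fits took bin number as a number, a model that gave 0.44 (edgeR adjusted p = 0.00679) with all bins kept. The antisense gene that overlaps Wee1 was at 0.0125 CPM over all cells.

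A test for any difference among the 4 bins, from the same edgeR fit, called 8.37% of genes and 4 of the 8. These were Wee1 (adjusted p = 0.0065), Ccnd1 (adjusted p = 0.0143), Cdk4 (adjusted p = 0.0144) and Ccne1 (adjusted p = 0.0366). Cdkn1b had an adjusted p of 0.0996 in this edgeR test.

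The share of cells in a G2/M class, set by a transcript score, was largest in the brightest bin on both plates. Cells were scored on 43 S phase and 54 G2/M genes, none of them among the 8 genes, and a cell was put in a class where its mean z-score within the plate was at least 0.5. The classes are ranges of a score, and 9 cells on each plate lay within 0.1 of that value. The S class held 9 and 8 cells, the G2/M class 34 and 47 and neither class 340 and 324 on plates 1 and 2. On plate 1 the G2/M class held 5.26%, 6.25%, 6.25% and 17.7% of cells in bins 1 to 4. On plate 2 it held 12.6%, 8.51%, 6.25% and 22.3%.

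The trends were therefore also fitted on the 664 cells of neither class, where 14.2% of 17977 genes were called. Wee1 kept a trend of 0.28 (edgeR adjusted p = 0.00648), smaller than its 0.45 over all cells. Its level in these cells was 7.6, 12.2, 10.9 and 13.7 CPM in bins 1 to 4 of plate 1 and 8.9, 12.6, 14.2 and 19.2 CPM on plate 2. Bin 1 was again the lowest and bin 4 the highest on both plates. Ccnd1 had a trend of 0.36, Ccne1 of 0.24, Cdk4 of -0.16 and Cdkn1b of -0.07 log2 per bin in these cells, each still called. Cell cycle scores still varied among these cells. Ccnd1 there had a Spearman correlation with the G2/M score of 0.31 and 0.26 on plates 1 and 2. With the S score it was 0.25 and 0.27. The part of this remaining variation in the trends was not tested.

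**Figure D2:**
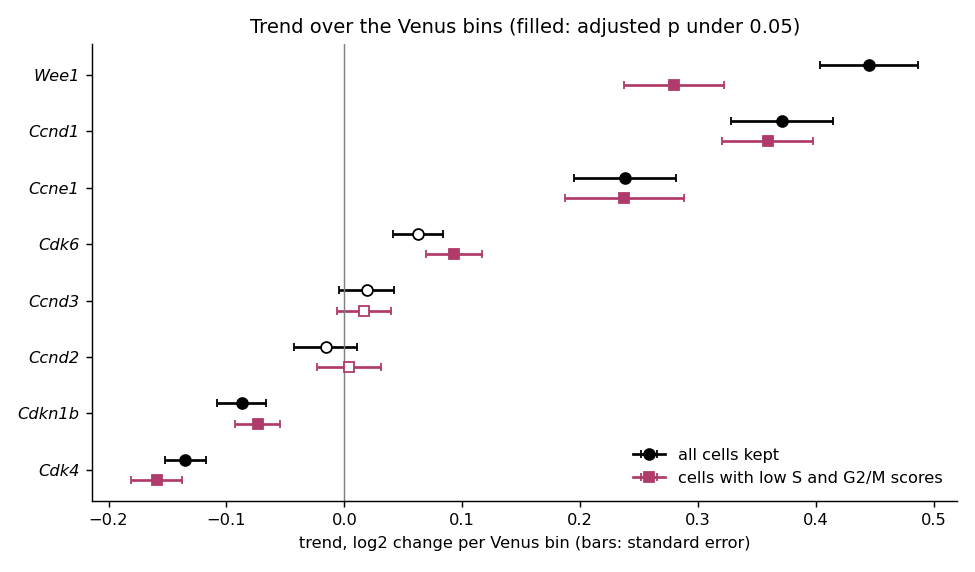
Trend over the Venus bins (horizontal axis, log2 change per bin, with standard errors) for each of the 8 genes, over all kept cells (black circles) and over cells of neither class (red squares), filled where the adjusted p is under 0.05. Wee1 moves from 0.45 to 0.28, and of these 2 fits Cdk6 passes the threshold in that on cells of neither class.

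Differences between the cell cycle classes were larger than those between the outer Venus bins for Ccne1, Wee1 and Ccnd1, set as S cells against cells of neither class. Other members did the same, among them Cdk6 (mean ratio 1.90 against 1.13 for bin 4 over bin 1) and Ccnd3 (1.34 against 1.11). Cdk4 did not (1.17 against 0.786). The values are descriptions, since the classes were cut from scores of the same cells, and no test was run. Ccne1 was at 76.8 and 87.7 CPM in the S class of plates 1 and 2, against 13.4 and 13.9 CPM in cells of neither class. In the G2/M class it was at 15.3 CPM on plate 1 and 5.98 CPM on plate 2. Ccne1 was thus highest in S cells on both plates.

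Summed over the cells of a plate, Wee1 was high in both classes. It stood at 53.1 and 86.2 CPM in S cells, at 57.4 and 46.2 CPM in G2/M cells and at 11.01 and 13.6 CPM in cells of neither class on plates 1 and 2. The mean ratio to cells of neither class was 5.59 in S and 4.31 in G2/M. Within the G2/M class Wee1 stood at 32.7, 48.8, 75.5 and 60.6 CPM in bins 1 to 4 of plate 1, and at 9.7, 79.3, 54.4 and 51.1 CPM on plate 2. Bin 1 was lowest there on both plates, with 5 and 12 cells. On plate 2 its 9.7 CPM was close to the 8.9 CPM of cells of neither class in that bin.

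Ccnd1 was at 127 and 192 CPM in S cells and at 82.7 and 71.3 CPM in G2/M cells, against 38.5 and 40.9 CPM in cells of neither class. Both classes were above the remaining cells on both plates. Cdk6 was at 219 and 165 CPM in S cells but at 68.0 and 72.7 CPM in G2/M cells, with 97.0 and 106 CPM in cells of neither class. Cdk6 was above the remaining cells in S and below them in G2/M on both plates. Cdkn1b had the opposite order, at 83.4 and 118 CPM in S cells, 138 and 144 CPM in cells of neither class and 189 and 195 CPM in G2/M cells.

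Ccnd2 was lower in G2/M cells, at 209 and 207 CPM, than in cells of neither class, at 303 and 262 CPM. Ccnd3 in S cells was at 188 and 187 CPM, against 143 and 138 CPM in cells of neither class. Cdk4 was at 471 and 466 CPM in G2/M cells, at 499 and 528 CPM in cells of neither class and at 600 and 606 CPM in S cells. In all, 6 of the 8 genes were higher in S cells and 3 were higher in G2/M cells than in cells of neither class on both plates. The share of all genes that did so was not counted, so nothing is read from these counts about the 8 genes as a set. With class limits of 0.25 or 1 in place of 0.5 these counts were the same.

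**Figure D3:**
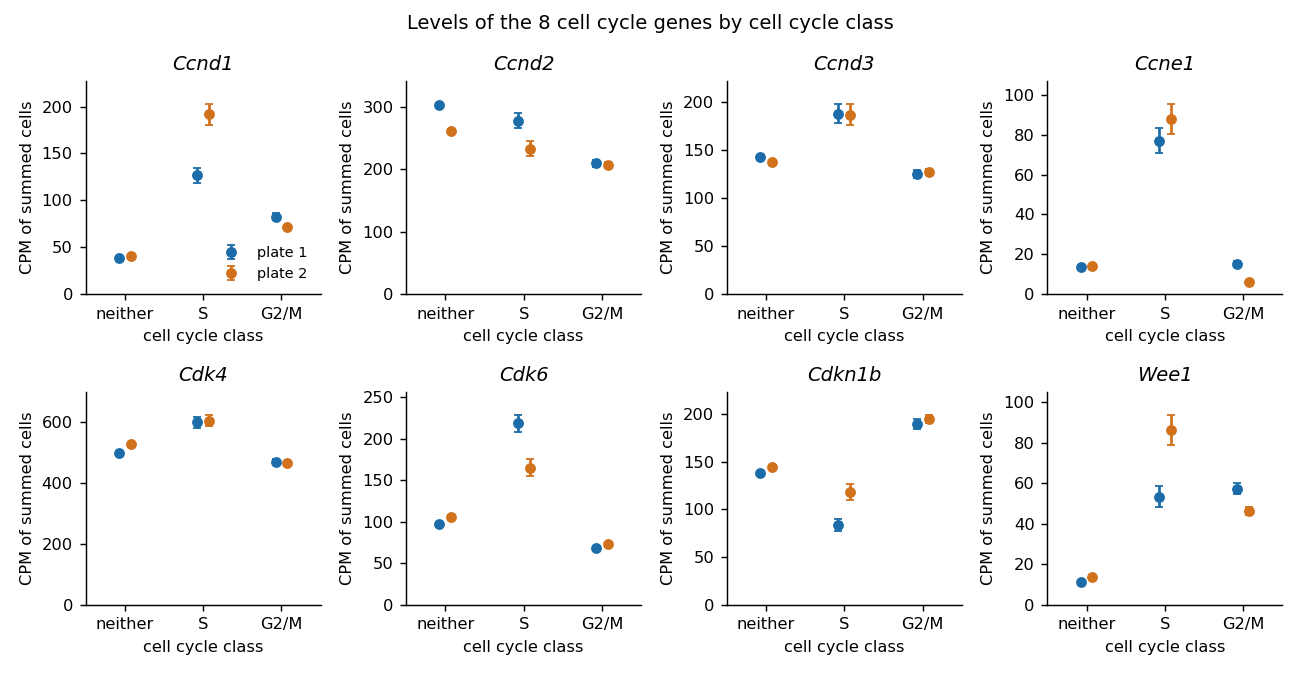
Levels of the 8 genes as CPM of the summed cells (vertical axis, from 0) by cell cycle class on plate 1 (blue) and plate 2 (orange), with exact Poisson 95% intervals as bars. Ccne1 is highest in S cells, Cdkn1b is highest in G2/M cells, and Wee1 is high in both.

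The genes also differed in how evenly cells carried them. Cdk4 had a coefficient of variation over cells of 0.322 and 0.308 on plates 1 and 2, and the 10% of cells with the most held 16.4% and 16.2% of its CPM. For Wee1 the coefficient was 1.72 and 1.57, and the top 10% held 50.4% and 44.8%. Ccnd1 (41.7% and 38.7%) and Ccne1 (40.2% and 35.3%) lay between. Wee1, Ccnd1 and Ccne1, the 3 genes that rose with Venus, were thus also those whose counts sat in the fewest cells.

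More cells had a count of these genes in bright than in dim bins. Each cell was thinned to 300000 counts, which left out 8 shallower cells, all on plate 2. After thinning, Wee1 was detected in 50.5%, 63.5%, 71.9% and 77.1% of cells in bins 1 to 4 of plate 1 and in 52.6%, 73.3%, 77.1% and 85.1% on plate 2. Without thinning the shares ran from 61.1% and 63.2% in bin 1 to 85.4% and 91.5% in bin 4. Ccnd1 after thinning was detected in 71.6% and 73.7% of cells in bin 1 and in 92.7% and 94.7% in bin 4. Ccne1 was detected in 60.0% and 62.1% of thinned cells in bin 1 and in 75.0% and 80.9% in bin 4. The exact binomial 95% intervals of bins 1 and 4 did not overlap for Wee1 or Ccnd1 on either plate. For Ccne1 they overlapped on both plates. These intervals take the cells as independent and hold no spread between plates or well positions, so they are descriptions of each plate and bin. A count in a cell may also come from free RNA or from another well, and no cell type lacking these genes was in the series to give that background.

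**Figure D4:**
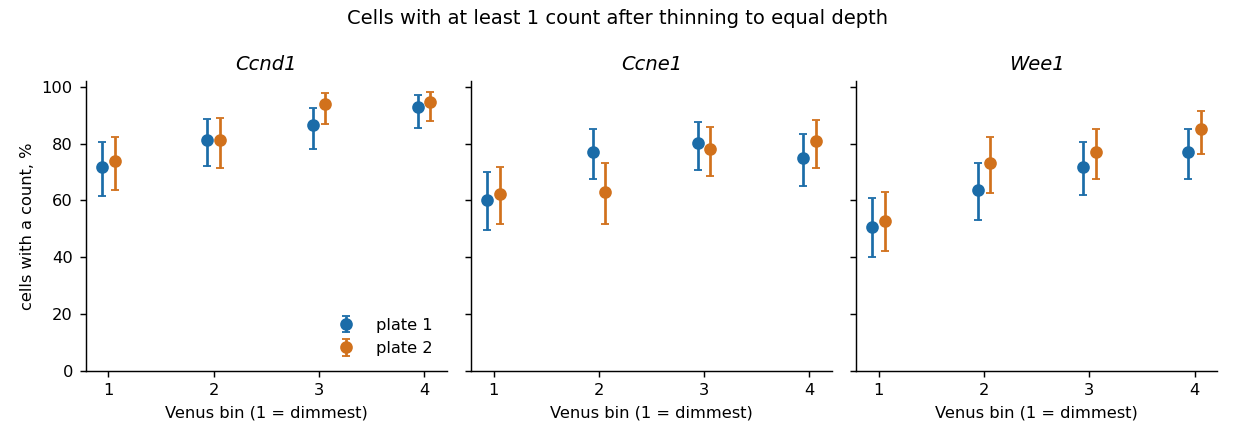
Percent of cells with at least 1 count after thinning to 300000 counts (vertical axis, 0 to 100) by Venus bin for Ccnd1, Ccne1 and Wee1 on plate 1 (blue) and plate 2 (orange), with exact binomial 95% intervals. Wee1 goes from 50.5% and 52.6% in bin 1 to 77.1% and 85.1% in bin 4.

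Across the cells of a plate, the 8 genes were mostly weakly related to each other. Spearman correlations of log2(CPM + 1) over 383 and 379 cells, which share library preparation and plate, are given as descriptions. Of 28 pairs, 22 stayed under 0.2 in size on both plates. The pairs at 0.2 or beyond on both plates were Ccnd1 with Cdk6 (0.31 and 0.28) and Ccnd1 with Cdk4 (-0.28 and -0.23). Ranked within bins, Ccnd1 with Cdk6 remained at 0.28 and 0.25 and Ccnd1 with Cdk4 was at -0.19 and -0.14. The Ccnd1 transcript thus ran with that of Cdk6 and against that of Cdk4 from cell to cell, the latter under 0.2 in size within bins. Ccne1 with Cdk6 was at 0.198 on plate 1, just under that size, and at 0.292 on plate 2.

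Correlations of Wee1 with clock genes were weak. Its correlation with Dbp was 0.23 on both plates, with Per2 0.22 and 0.20, and with Arntl (Bmal1, the clock activator) -0.15 and -0.17. In cells of neither class the correlation of Wee1 with Dbp was 0.28 and 0.32 and with Per3 0.30 and 0.26. Ranked within Venus bins, Wee1 with Dbp was 0.09 on both plates. Over all cells, the relation was thus small once cells of similar Venus brightness were compared. It was not computed within bins for cells of neither class alone.

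For Ccnd1 the correlations with the cell cycle scores were among the largest. Its correlation with the G2/M score was 0.35 and 0.34, with the S score 0.31 and 0.35, and with Venus fluorescence 0.30 and 0.23. It was also lower in cells with a higher mitochondrial share of counts (-0.34 and -0.18). Cdk4 ran against Venus fluorescence (-0.31 and -0.24) and with the mitochondrial share (0.25 and 0.31). The median mitochondrial share itself was 9.77%, 9.26%, 9.30% and 8.68% in bins 1 to 4 of plate 1. On plate 2 it was 7.24%, 7.79%, 7.91% and 7.02%, with no steady order over the bins. Its part in the Ccnd1 and Cdk4 trends was not tested.

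**Figure D5:**
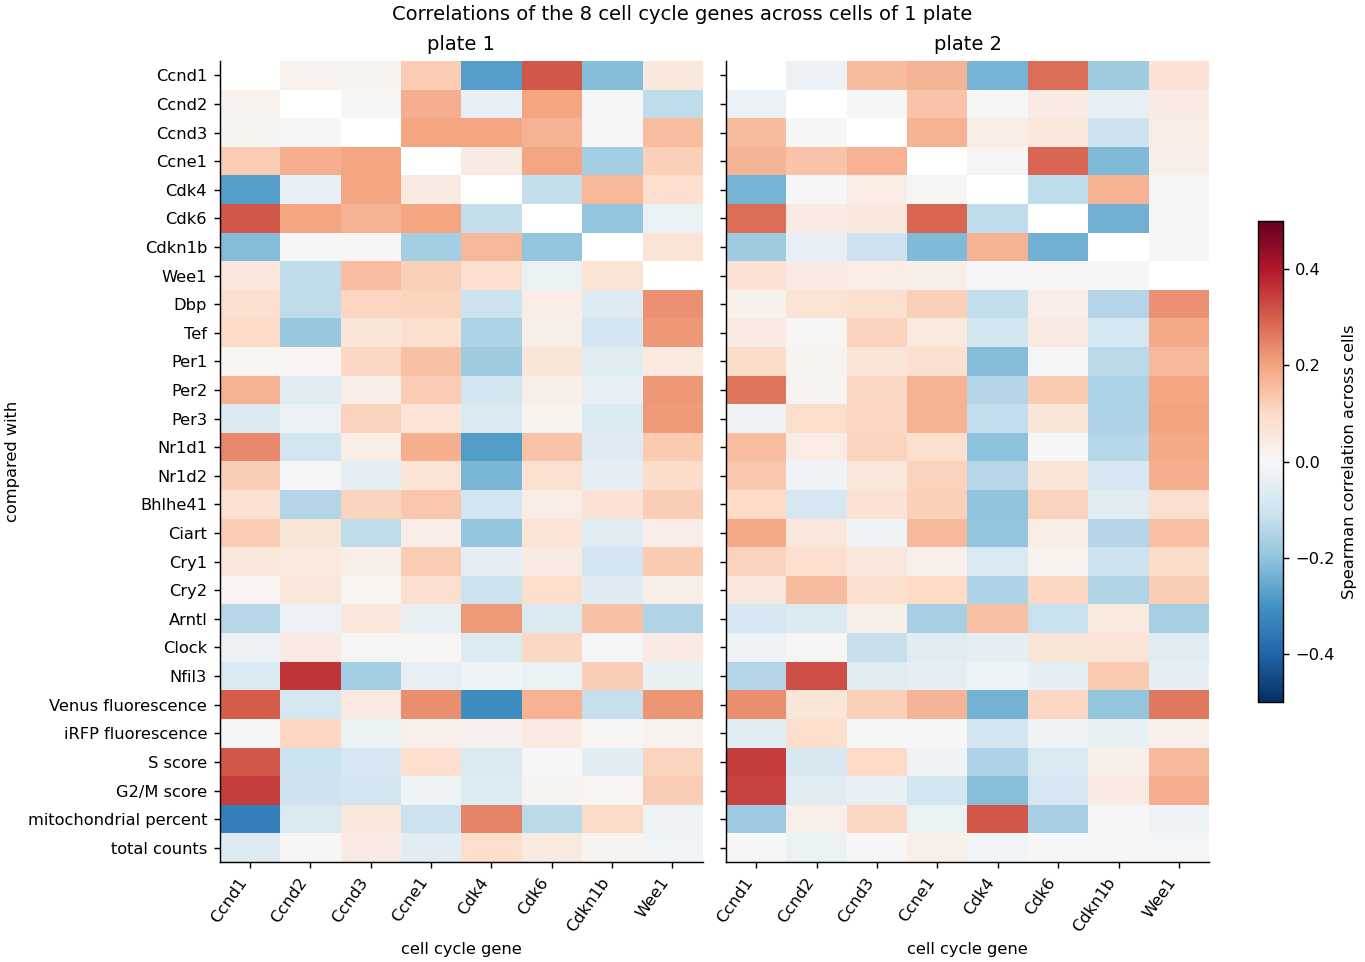
Spearman correlations across the cells of plate 1 (left, 383 cells) and plate 2 (right, 379 cells) of each of the 8 genes (columns) with each other, with clock genes, with fluorescence and with cell scores (rows), from blue (negative) to red (positive). Ccnd2 with Nfil3, Ccnd1 with the cycle scores and Wee1 with Dbp are positive on both plates, and total counts are near 0 throughout.

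Ccnd2 had no trend over the Venus bins that passed the test, yet its correlation with Nfil3, a repressor acting at the D-box, was 0.36 and 0.32, and 0.32 and 0.33 within bins. The genes most like Ccnd2 across cells, out of 10910 genes detected in at least 20% of cells on each plate, were Gars (0.54 and 0.49), Aldh18a1 (0.48 and 0.45) and Sars (0.43 and 0.46). Gars and Sars encode aminoacyl-tRNA synthetases and Aldh18a1 an enzyme of proline synthesis. Those most like Ccnd1 were Ergic1 (0.55 and 0.54), Lgals1 (0.52 and 0.51) and Pfn1 (0.54 and 0.49). Cdk4 was most like Cirbp (0.52 and 0.54), an RNA-binding protein induced by cold, Naca (0.50 and 0.49) and Evl (0.52 and 0.47).

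The most alike genes of the other members were weaker. Wee1 was most like Tspan4 (0.24 and 0.23), Dbp (0.23 on both plates) and Ect2 (0.23 and 0.21), of which Ect2 is on the G2/M scoring list. Ccne1 was most like Loxl3 (0.26 on both plates), Ly6e (0.22 and 0.21) and Lamtor1 (0.21 on both plates). Ccnd3 was most like Mtap (0.26 and 0.25), Cuta (0.25 and 0.24) and Loxl3 (0.24 and 0.25). Cdkn1b was most like Pnrc2 (0.24 and 0.29), Cbx3 (0.24 and 0.26) and Phip (0.24 and 0.25). Cdk6 was most like Myc (0.29 and 0.38), Rhoj (0.29 and 0.28) and Ccnd1 (0.31 and 0.28).

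The wider G1/S network was counted in the same Venus trend test. Of 20 listed genes, 18 were tested, of which 1 rose, 3 fell and 14 did not pass the test, beside 6.78% higher and 8.64% lower of all genes tested. The median trend was -0.03 log2 per bin beside 0.00 for all genes. In cells of neither class 0 rose and 2 fell of 17 tested, beside 14.2% of all genes called in either direction. Ccne2, the second E-type cyclin, rose by 0.33 ± 0.08 log2 per bin (SE; edgeR adjusted p = 0.0332). Rb1, the retinoblastoma gene, fell by 0.28 on the log2 scale per bin (SE 0.05, edgeR adjusted p = 0.0103). E2f5 (-0.16, edgeR adjusted p = 0.0293) and the CDK subunit Cks1b (-0.16, edgeR adjusted p = 0.0168) were also lower. The p21 gene Cdkn1a had a trend of 0.01 (edgeR adjusted p = 0.939), Cdk2 of -0.04 (edgeR adjusted p = 0.357) and E2f2 of 0.40 ± 0.25 (SE; edgeR adjusted p = 0.346).

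Cdk1, the target of Wee1, was also counted together with its cyclins and other regulators of its activity. Of 9 tested, 4 rose, none fell and 5 did not pass the test, beside 6.78% higher and 8.64% lower of all genes tested. The median trend of the 9 was 0.17 log2 per bin, and it was 0.36 on plate 1 and 0.05 on plate 2. Pkmyt1, the sister kinase of Wee1, rose by 0.26 ± 0.05 log2 per bin (SE; edgeR adjusted p = 0.0177). Chek1, which activates Wee1 in the checkpoint, rose by 0.29 (edgeR adjusted p = 0.0212), the target Cdk1 by 0.34 (edgeR adjusted p = 0.027) and Ccnb2 by 0.39 (edgeR adjusted p = 0.0218). In cells of neither class 2 of the 9 rose and 0 fell, beside 14.2% of all genes called in either direction, and their median trend was 0.27 log2 per bin. Cdk1, Ccnb2 and Cdc25c of this list and Cks1b of the G1/S list are also on the G2/M scoring list, and Ccne2 is on that for S phase. The part of the G2/M share of cells in each bin, given above, in the trends over all cells was not tested.

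H2B-iRFP fluorescence was examined within plates, since its sort coincided with the plate. Cells of each plate and bin were split at their median iRFP fluorescence, and the 16 sums were tested with edgeR with the 8 plate and bin combinations as blocks. None of 14862 genes was called (0%), 833 (5.6%) had an unadjusted p under 0.05, and DESeq2 called 14. Ccnd2 had a bright minus dim difference of 0.17 ± 0.04 log2 (SE; edgeR adjusted p = 0.85). Before adjustment it was under 0.05, and no other member was. It was higher in the brighter cells on both plates, by 0.19 and 0.14 log2. DESeq2 gave it an adjusted p of 0.0487. Ccnd1 had a difference of -0.22 ± 0.11 log2 (SE; edgeR adjusted p = 0.869) and Wee1 of -0.07 ± 0.13 log2 (SE; edgeR adjusted p = 0.981).

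Between the plates, and so between the iRFP sorts, the genes differed little. Ccnd2 on plate 1 was 1.15 times its level on plate 2 (exact 95% interval for counting error 1.14 to 1.16). Wee1 was 0.853 times as high on plate 1 (0.822 to 0.885). The other 6 genes lay between 0.939 and 1.06. With 1 plate per sort there is no replicate check of these ratios.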

How the data were processed

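Single cells were sorted and sequenced by the authors (21 and 8 PCR cycles, paired 75 bp reads, per the labels' protocols). The authors deposited whole-number counts per gene and cell. The submitters' processing notes name STAR 2.7.11a, SAMtools, bedtools, HTSeq and GRCm39, with no roles, and use of strand or molecular identifiers was not given in the sources used here, so intervals reflect counting error alone. A sorting record, also deposited, gives linear fluorescence intensity per cell. Features without a symbol held 1.10% of counts. Cells with at least 1000 genes, 0.1 of the plate median total and at most 25% mitochondrial counts were kept. Doublets were not called, as each well received a single sorted cell.

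Counts were summed per plate and Venus bin and fitted with edgeR 4.0.16 in R 4.3.3 (TMM, filterByExpr, bins and plate as terms, 3 residual degrees of freedom; contrast weights 3 and 1, divided by 10). Trends on a single plate used log2 CPM with a prior count of 2. CPM values shown are relative to the library total without TMM. The comparison of brighter with dimmer iRFP cells had 7 residual degrees of freedom. DESeq2 1.42.0 and limma 3.58.1 were alternatives. Fits were tested on simulated sums with known changes in either direction. The Venus fit called 37% of genes with a true trend of 0.2 log2 per bin and 63.5% of those with 0.5. The iRFP fit called 8.25% of genes with a true difference of 0.2 log2 and 58% of those with 0.5. Unchanged genes were called at 0.051% and 0.035% in the 2 fits. In the Venus simulation few of the 17837 genes were changed, 100 by 0.2 and 96 by 0.5, drawn at random over all levels. No plate difference was simulated, so the rates may differ for the members. A gene that was not called may still have changed. The members and lists were chosen with earlier results of these data known. The fixed rule named the 9 genes, list genes that passed or were preset, up to 4 list genes of large trend, and the 3 nearest genes of each member. The design had assumed 2 iRFP bins on each plate, which the files did not hold.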

Additional observations from a re-analysis of the deposited data

Results flagged for a closer look

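The direction of some values differed between the plates, and so between the iRFP sorts, and none of these differences was tested, since each sort had 1 plate. The Venus trend of Ccnd2 was -0.05 log2 per bin on plate 1 and 0.02 on plate 2, a difference of -0.0762. That of Ccnd3 was -0.01 and 0.04, a difference of -0.0516. Between the brighter and dimmer iRFP cells, the plate 1 value less the plate 2 value was 0.3685 log2 for Ccne1, 0.1027 for Cdk4, 0.1613 for Cdk6 and 0.0323 for Cdkn1b, each with opposite signs on the plates. Outlying samples were not looked for, since the only group holds 2 plates.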

How the results depend on the processing

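The alternatives were TMM left out, DESeq2, no filter on low counts, a stricter cell filter, thinned cells, limma on mean CPM, no plate term, bin number as a number, each bin left out, cells of neither class and each plate alone. Ccnd1 stayed higher and called in each alternative with a test. Genes called along Venus, 2843 as reported, were 1683 with no replicate block (no plate term) and 1858 with bin number as a number. Without bins 1, 2, 3 and 4 they were 1003, 1143, 1209 and 237. Those last fits also took bin number as a number and had fewer sums. Of the 8 genes, 5 were called as reported and with no replicate block, and 2, 2, 3 and 2 without bins 1 to 4. Genes with any bin difference, 1542 as reported, were 3653 with DESeq2, 2661 with no filter and 490 with no replicate block. Between brighter and dimmer iRFP cells, DESeq2 called 14 genes and 1 of the 8, in place of 0. Pairs at 0.2 or beyond on both plates were 1 in place of 2 when ranked within bins. Of the called genes 44.0% were higher, against 57.8% without TMM and 57.6% with limma on mean CPM, while the median trend over genes stayed within 0.02 of its main value.

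Some values changed sign. The Venus trend of Ccnd2 was 0.0014 without TMM, 0.0025 with limma, 0.00059 without bin 2, 0.047 without bin 4, 0.0037 in cells of neither class, and -0.053 and 0.023 on plates 1 and 2 alone. That of Ccnd3 was -0.063 without bin 1, and -0.0076 and 0.044 on plates 1 and 2 alone. The iRFP difference was, on plates 1 and 2 alone, 0.37 and -0.0033 for Ccne1, 0.10 and -0.057 for Cdk6, 0.034 and -0.069 for Cdk4, and 0.016 and -0.017 for Cdkn1b. For Cdkn1b it was also 0.0018 with no filter and 0.0074 in thinned cells. The causes were not tested. A single plate leaves no residual degrees of freedom for the Venus trend, so it gives a value with no test and no count of calls. Wee1, Ccne1 and Ccnd1 have the fewest counts per cell, which limits how finely their levels can be read in single cells.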
